A study of Mus musculus with 6 samples.

Results

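The microRNA miR-22 is described here through its arms, mmu-miR-22-3p and mmu-miR-22-5p, which were found by name among the 1546 mature miRNAs listed for mouse liver. Both members were listed and both passed the filter on low values. Small RNA was sequenced from whole liver tissue in 3 NC and 3 MAFLD libraries. All were male C57BL/6 mice, 8 weeks old when the feeding began, and the sources name no genetic change in either group. NC mice were fed a normal diet, and MAFLD mice (metabolic dysfunction-associated fatty liver disease) were fed a high-fat diet, in both groups for 16 weeks and with 6 mice per diet. They fasted before the livers were taken. The sources do not say how the 3 libraries per diet were drawn from the 6 mice or whether each is 1 mouse, and each library is called a liver here. The growth and treatment notes in the labels describe HepG2 cells, a human liver cell line, but each sample is labelled as mouse liver and was taken as such.

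A miRNA is cut from a folded precursor, the hairpin, whose sides give a 5p and a 3p arm. One of these is usually kept in an Argonaute protein and the other is mostly degraded, and the kept arm finds its targets chiefly through its seed, bases 2 to 8. MiR-22 is widely expressed, and in liver it is known for repressing genes of fatty acid oxidation and energy use, among them Sirt1, a deacetylase, and Ppargc1a, a coactivator of mitochondrial genes.

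The sequences of both arms and of their hairpin are given first, because every value below is a count of one arm or a ratio of the pair. They come from RefSeq on GRCm38.p6. In the lines for the arms the capitals mark the seed, and in the line for the hairpin they mark both arms, the 5p arm first.
mmu-miR-22-3p: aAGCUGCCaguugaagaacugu
mmu-miR-22-5p: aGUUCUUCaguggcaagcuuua
Mir22 hairpin: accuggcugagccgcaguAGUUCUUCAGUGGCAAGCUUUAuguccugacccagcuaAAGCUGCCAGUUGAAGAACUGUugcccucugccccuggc

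The hairpin of 95 bases occupies positions 75463716 to 75463810 of chromosome 11, plus strand. The 5p arm spans 75463734 to 75463755 and the 3p arm 75463772 to 75463793, each 22 bases long and 16 bases apart. In GENCODE M21 the gene Mir22 (ENSMUSG00000065529.1) lies within exon 2 of its noncoding host gene Mir22hg (ENSMUSG00000085148.1), from 75463693 to 75463857 in the transcript Mir22hg-202. The protein-coding gene Tlcd2 (ENSMUSG00000038217.13), from 75461715 to 75470899, spans the same place on the same strand. In the predicted fold of lowest energy, at -41.9 kcal/mol, 21 of the 22 bases of the 3p arm were paired, 19 of them with the 5p arm. All 7 bases of each seed were paired. None of the other mature mouse miRNAs in RefSeq shared either seed, with 1679 mature names searched, so neither arm has a seed family among them. For 1312 of the 1546 listed miRNAs a sequence was found there.

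The libraries held between 1336935 and 4685712 reads on miRNAs, and the values are CPM, the reads of a miRNA scaled to a common total of these reads. Hepatocyte markers were present in every library, and miR-122-5p, the typical hepatocyte miRNA, took between 4.22% and 8.51% of the reads. NC replicate 3 stood apart from the other NC livers. The 6 brain markers, all detected, summed to 469 and 758 CPM in NC replicates 1 and 2, against 57.6 CPM in NC replicate 3 and 50.2 to 70.4 CPM in the MAFLD libraries. MiR-9-5p made up most of the sums in NC replicates 1 and 2, at 344 and 530 CPM. Of the list only miR-137-3p did not follow, at 2.35, 7.01 and 7.48 CPM in NC replicates 1, 2 and 3. MiR-148a-3p, the most abundant miRNA, took 71.4%, 63.3% and 48.5% of the reads in NC replicates 1, 2 and 3, and 46.8%, 56.7% and 51.6% in MAFLD replicates 1, 2 and 3. CPM values share 1 total, so a larger share of miR-148a-3p lowers the CPM of all other miRNAs.

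MiR-22-3p was the main product of the hairpin and did not differ past the threshold between the diets. NC replicates 1, 2 and 3 held 632, 622 and 1245 CPM of it, and MAFLD replicates 1, 2 and 3 held 1512, 974 and 1172 CPM. The groups overlapped, since NC replicate 3 lay above MAFLD replicates 2 and 3, while NC replicates 1 and 2 lay below all MAFLD livers. NC livers averaged 833 ± 357 CPM (SD, n = 3) and MAFLD livers 1219 ± 272 CPM (SD, n = 3), for a ratio of 1.46. In bulk tissue, fewer cells of a type and less RNA per cell cannot be told apart. On log2(CPM + 1) the fold change was 0.61 (standard error 0.36, 95% interval -0.16 to 1.37, limma, Benjamini-Hochberg adjusted p = 0.374). An exact two-sided permutation test over the 6 livers gave p = 0.3, where 0.1 is the smallest p that 3 livers against 3 allow. Among the 501 miRNAs averaging at least 1 CPM, 1 passed an adjusted p of 0.05 (0.2%), and neither arm of miR-22 was that one.

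**Figure D1:**
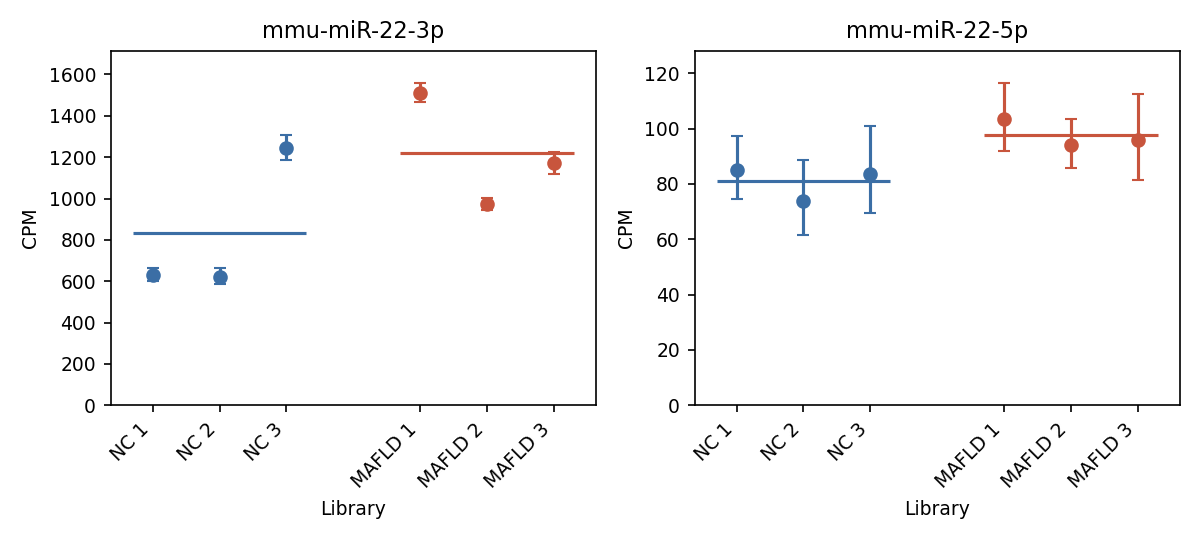
Level of each miR-22 arm in CPM (y axis, from 0) in the 6 libraries (x axis). Points are libraries, bars are 95% Wilson intervals of the read counts, and horizontal lines are group means (833 and 1219 CPM for the 3p arm, 80.9 and 97.8 CPM for the 5p arm). The 3p arm of NC 3 lies among the MAFLD livers, while the 5p arm of all NC livers lies below all MAFLD livers, with intervals that overlap except between NC 2 and MAFLD 1.

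MiR-22-3p was read 976 to 4564 times per library, for which counting alone gives a coefficient of variation of 1.48% to 3.20%. In the deposited CPM it varied by 42.8% between the NC livers and by 22.3% between the MAFLD livers, and with median-ratio scaling, which sets the typical ratio to the mean of all libraries equal in each, by 12.1% and 13.5%. Whether miR-22-3p passed depended on NC replicate 3 and on the scaling. Without NC replicate 3 the log2 fold change was 0.93 in the deposited CPM, with an adjusted p of 0.0198 (limma). In that fit 114 of the 501 miRNAs passed (22.8%). With the same library left out under median-ratio scaling, the log2 fold change was 0.23 (adjusted p = 0.546, limma). This last fit was chosen after seeing the data. The libraries that were low in miR-22-3p, NC replicates 1 and 2, were also those with the highest brain marker sums and the largest shares of miR-148a-3p, and their hepatocyte marker sums, 102722 and 124015 CPM, were below the 147868 to 176512 CPM of the other 4 libraries. The pair of endothelial markers, both arms of miR-126a, summed to 4718 and 4710 CPM in these livers, to 6587 CPM in NC replicate 3 and to 7659 to 10155 CPM in the MAFLD livers, without overlap between the groups. The orders of the hepatocyte and endothelial sums did not hold with median-ratio scaling, the only other scaling applied to the marker sums. With median-ratio scaling the hepatocyte sums were 162395 and 159846 in NC replicates 1 and 2, above the 120267 to 153420 of the other 4 libraries, and the endothelial sums overlapped, at 5254 to 7459 in NC and 5861 to 8344 in MAFLD livers. The brain sums of NC replicates 1 and 2, 741 and 977, were still above the 41.0 to 53.9 of the other 4. The part of these in the level of miR-22-3p was not tested. The other marker lists overlapped between the groups in CPM. Muscle markers, of which 5 of 7 were detected and miR-208a-3p was listed at 0, summed to 52.2 to 242 CPM in NC and 37.5 to 230 CPM in MAFLD livers. The sums were 602 to 1212 and 431 to 999.6 CPM for erythroid cells, and 1616 to 3061 and 2223 to 3314 CPM for immune cells. They were 12612 to 30033 and 19775 to 26950 CPM for stellate cells, and 1.57 to 6.73 and 2.63 to 9.77 CPM for pancreas. MiR-143-3p made up most of each stellate sum, and miR-146a-5p most of each immune sum. Both miR-199a arms and miR-214-3p were lower in NC replicates 1 and 2 than in the other 4 libraries. MiR-199a-3p stood at 270 and 363 CPM there, against 614 to 890 CPM. MiR-143-3p and miR-145a-5p were not lower in this way. Of the immune markers, miR-155-5p and miR-223-3p were, and the others were not. The part of these, in the deposited CPM, was not tested either.

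MiR-22-5p was about an order of magnitude scarcer, and it too did not differ past the threshold. NC replicates 1, 2 and 3 held 85.1, 73.9 and 83.8 CPM of this arm, and MAFLD replicates 1, 2 and 3 held 104, 94.1 and 95.8 CPM. Every MAFLD liver thus lay above every NC liver, as it did for 76 of the 501 miRNAs tested (15.2%). The 95% Wilson intervals of single livers mostly overlapped, as that of NC replicate 1 reached from 74.5 to 97.2 CPM and that of MAFLD replicate 2 from 85.7 to 103 CPM. The exception was NC replicate 2, up to 88.6 CPM, against MAFLD replicate 1, from 92.0 CPM. These intervals cover counting error only. The means were 80.9 ± 6.11 CPM (SD, n = 3) and 97.8 ± 5.03 CPM (SD, n = 3), a ratio of 1.21. The log2 fold change was 0.27 (standard error 0.38, 95% interval -0.53 to 1.07, adjusted p = 0.712 from limma). The exact permutation test over the 6 livers gave p = 0.1, the smallest possible. The 112 to 441 reads of miR-22-5p per library give a counting variation of 4.76% to 9.45%. In the deposited CPM the livers varied by 7.56% within NC and 5.14% within MAFLD. With median-ratio scaling they varied by 34.4% within NC and 15.0% within MAFLD.

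Within each liver, the position of miR-22-3p among all miRNAs hardly moved. Counted from the most abundant, it ranked 35, 35 and 32 in NC replicates 1, 2 and 3, and 33, 35 and 34 in MAFLD replicates 1, 2 and 3. The mean rank was 34.0 ± 1.73 (SD, n = 3) in NC and 34.0 ± 1.00 (SD, n = 3) in MAFLD livers (exact two-sided permutation test, p = 1). The rank thus spanned 3 positions over the 6 livers, whereas the CPM of the same miRNA ran from 622 to 1512. For the 40 miRNAs nearest in mean level, 20 on each side, the rank spanned between 1 and 25 positions with a median of 7, and 6 of the 40 spanned 3 or fewer. MiR-22-5p ranked 90, 102 and 118 in NC and 108, 93.5 and 115.5 in MAFLD livers (exact permutation test, p = 0.8). Its span of 28 positions was under the median of 35 for its 40 nearest miRNAs.

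By the mean over the 6 livers miR-22-3p was in position 34, between miR-152-3p at 1090 ± 381 CPM (SD over the 6 libraries) and miR-203-3p at 925 ± 364 CPM. The order with these neighbours was not the same in every liver. MiR-100-5p and miR-152-3p, the next above, were each higher than miR-22-3p in 4 of the 6 livers. MiR-203-3p and miR-23b-3p, the next below, were higher in 2 and 1 of the 6. Let-7b-5p, in position 31, was higher in all 6 livers, and miR-140-3p, in position 37, was lower in all 6. MiR-22-5p was in position 110, and of the 3 miRNAs on each side of it (miR-423-5p, miR-5099, miR-28a-3p, miR-29c-3p, miR-183-5p and miR-1981-5p) each lay above it in 2 or 3 of the 6 livers, so none of these neighbours was separated from it.

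The deposited values were then set beside other scalings, since the share of miR-148a-3p differed between the livers. In CPM computed without miR-148a-3p, miR-22-3p stood at 2209, 1696 and 2418 in NC and at 2839, 2252 and 2422 in MAFLD livers. NC replicate 1 was then close to MAFLD replicate 2, and the group means were 2107 ± 371 and 2504 ± 302 (SD, n = 3 each). With median-ratio scaling it stood at 999.5, 802 and 993 in NC and at 1171, 1011 and 897 in MAFLD livers. Leaving miR-148a-3p out of the total brought the log2 fold change of miR-22-3p to 0.26, and median-ratio scaling brought it to 0.14. Quantile normalization brought it to 0.0056. The median over the miRNAs tested moved from 0.43 in the deposited CPM to 0.16, 0.044 and 0.11 in the same order, over 500 miRNAs in the first and 501 in the others. In the deposited CPM, 61.5% of the tested miRNAs had a smaller log2 fold change than miR-22-3p.

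MiR-22-5p changed direction with the scaling. In CPM without miR-148a-3p it stood at 297, 202 and 163 in NC and at 194, 218 and 198 in MAFLD livers, and the groups overlapped. With median-ratio scaling the values were 135, 95.3 and 66.8 in NC and 80.2, 97.6 and 73.3 in MAFLD livers. NC replicate 1 was now the highest liver and NC replicate 3 the lowest. The log2 fold change was -0.073 in the first and -0.19 in the second. The separation of the groups seen for miR-22-5p in the deposited CPM was absent in both, and 41.9% of the tested miRNAs had a smaller log2 fold change than miR-22-5p in the deposited CPM.

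**Figure D2:**
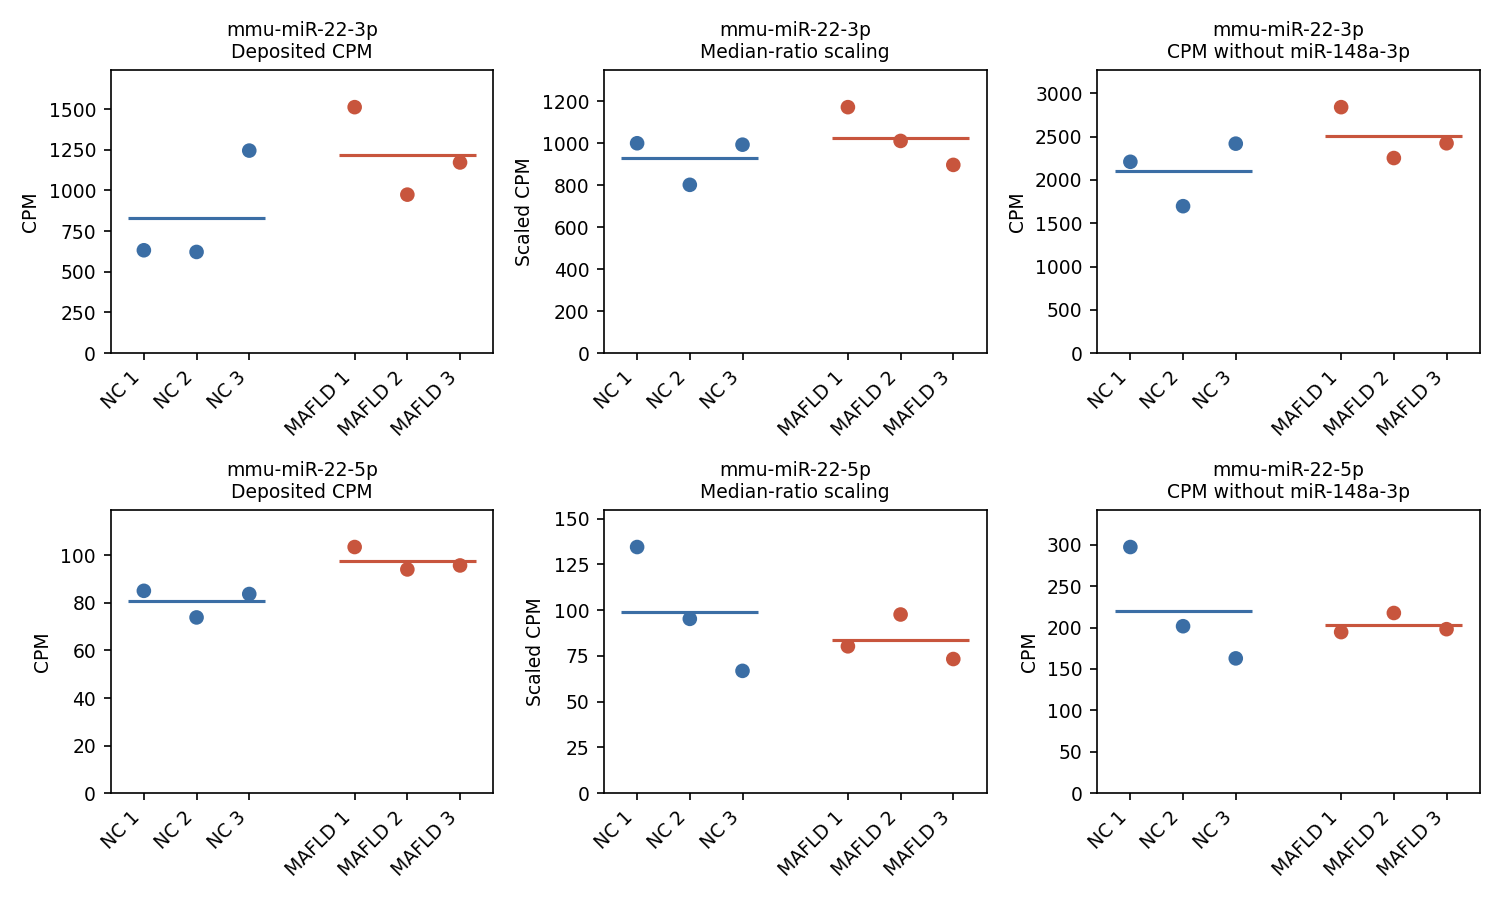
Level of miR-22-3p (top row) and miR-22-5p (bottom row) in the 6 libraries (x axis) under the deposited CPM, median-ratio scaling and CPM without miR-148a-3p (y axes in CPM or scaled CPM, from 0). Points are libraries and lines are group means. The 5p groups are apart in the deposited CPM (80.9 and 97.8 CPM) and overlap under both other scalings.

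**Figure D3:**
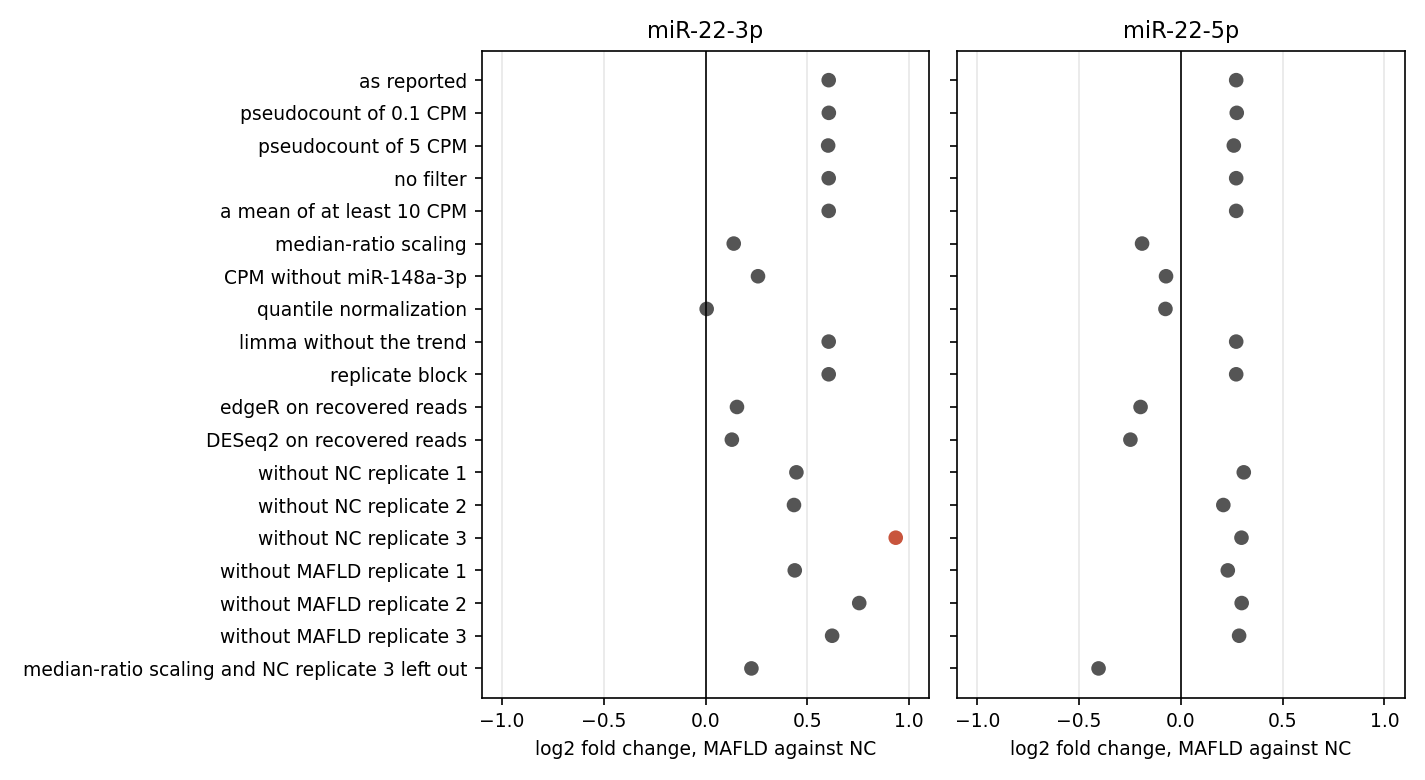
Log2 fold change of MAFLD against NC livers (x axis) for miR-22-3p (left) and miR-22-5p (right) as reported and under 18 alternatives (y axis). Each point is 1 fit, the vertical line marks 0 and red marks an adjusted p under 0.05. MiR-22-3p lies between 0.0056 and 0.93, and miR-22-5p lies on both sides of 0, from -0.40 to 0.31.

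The ratio of the arms does not depend on the scaling of a library, apart from the added pseudocount in the test. MiR-22-3p was read 7.43, 8.41 and 14.9 times as often as miR-22-5p in NC replicates 1, 2 and 3, and 14.6, 10.3 and 12.2 times as often in MAFLD replicates 1, 2 and 3. The 3p arm was dominant in all 6 livers, and NC replicates 1 and 2 had the lowest ratios while NC replicate 3 had the highest. As a share of the reads of both arms, the 3p arm made up 88.1% (95% Wilson interval 86.6% to 89.5%), 89.4% (87.4% to 91.1%) and 93.7% (92.5% to 94.7%) in the NC livers. In the MAFLD livers it made up 93.6% (92.8% to 94.3%), 91.2% (90.4% to 91.9%) and 92.4% (91.2% to 93.5%). The intervals of NC replicates 1 and 2 did not reach that of NC replicate 3, so livers on the same diet differed in the ratio by more than counting error.

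**Figure D4:**
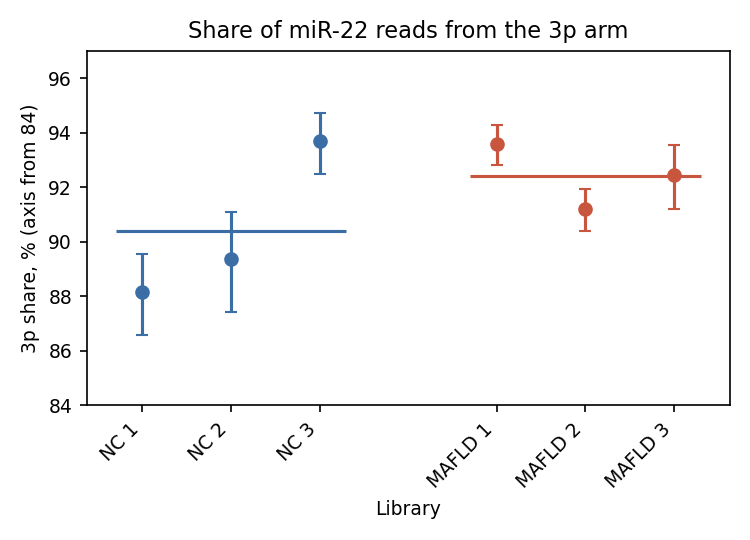
Reads of the 3p arm as a percentage of the reads of both miR-22 arms (y axis, starting at 84) in the 6 libraries (x axis). Bars are 95% Wilson intervals and lines are group means, 90.4% for NC and 92.4% for MAFLD. NC 1 and NC 2 lie lowest and NC 3 highest.

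Between the diets the arm ratio was not different past the threshold. The mean share of the 3p arm was 90.4% ± 2.92 (SD, n = 3) in NC and 92.4% ± 1.20 (SD, n = 3) in MAFLD livers. The log2 ratio differed by 0.33 (standard error 0.32, 95% interval -0.39 to 1.05, adjusted p = 0.661 from limma over all pairs of arms). The exact permutation test over the 6 livers gave p = 0.4. Of the 105 pairs in which both arms averaged at least 1 CPM, 0 passed an adjusted p of 0.05 in limma (0%), and 15 had an unadjusted p under 0.05, without miR-22. Without NC replicate 3 the difference was 0.64 (adjusted p = 0.137 from limma), and 14 of the 105 pairs passed in that fit.

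The dominance of the 3p arm was of ordinary size among the 105 pairs tested, out of 477 listed. Pairs with an arm averaging under 1 CPM were left out, and the pseudocount draws ratios of scarce arms towards 0. The pairs were not matched in level. The mean log2 ratio of 3p to 5p was 3.44 for miR-22, and the imbalance, taken without its sign, was smaller in 56 of the 105 pairs, whose median imbalance was 2.74. The 3p arm was the more abundant in 55 of the 105 pairs. Over the 6 livers the log2 ratio of miR-22 had an SD of 0.41, against a median SD of 0.68 over all pairs, and 78.1% of the pairs varied more. Counting alone spreads the ratio of scarcer pairs more, and each miR-22 arm had at least 112 reads per library. The lower SD therefore does not show a ratio that is steadier than that of pairs of like level.

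The levels of the arms did not correlate past the threshold. Over the 6 livers the log2(CPM + 1) values of miR-22-3p and miR-22-5p had a Pearson r of 0.76 (exact permutation test, p = 0.108) and a Spearman rho of 0.66 (exact permutation test, p = 0.175), the only relation tested in this way, with libraries that share the scaling of CPM. Without NC replicates 1 and 2, the libraries farthest from the median of miR-22-3p, r was 0.37 over 4 livers, in which miR-22-3p had a narrower range.

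The miRNAs whose levels followed each arm most closely were chosen by Pearson r of log2(CPM + 1) over the 6 livers among the 236 other miRNAs averaging at least 10 CPM. For miR-22-3p these were miR-30e-5p (r = 0.997), miR-27b-3p (r = 0.997) and miR-29a-3p (r = 0.986). MiR-30e-5p stood at 856, 887 and 1638 CPM in NC and at 1967, 1280 and 1475 CPM in MAFLD livers, again with NC replicate 3 among the MAFLD livers. MiR-27b-3p, a regulator of lipid genes, ran from 2680 to 5809 CPM in NC and from 4590 to 7451 CPM in MAFLD livers. MiR-22-5p had other companions, miR-203-3p (r = 0.979), miR-335-3p (r = 0.957) and miR-455-3p (r = 0.956). The levels of these 3 did not overlap between the groups, with miR-203-3p at 502 to 763 CPM in NC and 1037 to 1511 CPM in MAFLD livers. They were picked for likeness to an arm that was itself apart in the deposited CPM, so their separation is no further result. Of all 501 miRNAs tested, 76 were apart and higher in MAFLD livers (15.2%). These correlations were picked as the highest of many over 6 points that share 1 scaling, and they describe a likeness of levels only.

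MiR-22 was also set beside 22 miRNAs known for regulating lipid and energy metabolism in liver or for change in fatty liver, all of which were tested. The list was written with earlier results of these livers known. One of them, miR-802-5p, which impairs insulin sensitivity in liver, passed the adjusted p, with a mean of 23.0 ± 14.4 CPM in NC against 131 ± 27.5 CPM in MAFLD livers (SD, n = 3 each, adjusted p = 0.0263 from limma). Without adjustment, at p under 0.05, MAFLD livers had 10 of the 22 higher and 0 lower, where 67 of all 501 miRNAs were higher (13.4%) and 23 lower. The median log2 fold change was 0.71 over the list and 0.43 over all 501 miRNAs, and 0.32 and 0.044 with median-ratio scaling, with which 7 of the 22 were higher and 2 lower by the same threshold. In that fit 36 of all 501 miRNAs were higher (7.19%) and 45 lower (8.98%). With any 1 library left out its log2 fold change stayed between 2.31 and 3.06, against 2.60 with all 6. Its adjusted p was 0.0514, 0.0982, 0.206 and 0.0524 (limma) without NC replicate 1, NC replicate 2, MAFLD replicate 1 and MAFLD replicate 2. The call was thus lost in these fits while the size was kept. It held without NC replicate 3 (adjusted p = 0.000318, limma) and without MAFLD replicate 3 (adjusted p = 0.0445, limma). With all 6 libraries it was lost without the filter (adjusted p = 0.553, limma) and without the trend (adjusted p = 0.213, limma). The call held in the other alternatives with all 6 libraries, with adjusted p from 1.39e-09 (DESeq2) to 0.0413 (limma after quantile normalization). Without NC replicate 3, 12 of the 22 passed the adjusted p, all higher in MAFLD livers, as did 95 of all 501 miRNAs (19%).

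Within this list both arms of miR-22 lay in the middle or below. Of the 22 miRNAs, 12 had a larger log2 fold change than miR-22-3p and 17 a larger one than miR-22-5p. Besides miR-802-5p, the members with an unadjusted p under 0.05 were miR-155-5p, miR-34a-5p, miR-378a-5p, miR-107-3p, miR-30c-5p, miR-378a-3p, miR-29a-3p, miR-103-3p and miR-27b-3p. Their log2 fold changes ran from 0.75 for miR-27b-3p to 1.53 for miR-155-5p, a miRNA of activated immune cells, with adjusted p from 0.152 to 0.257 (limma). MiR-30c-5p, known to lower lipoprotein secretion, stood at 1219, 1114 and 1982 CPM in NC and at 3827, 2747 and 2390 CPM in MAFLD livers, and these groups did not overlap. MiR-103-3p, linked to insulin signalling, stood at 415, 379 and 622 CPM in NC and at 995, 785 and 757 CPM in MAFLD livers. MiR-122-5p and miR-148a-3p, abundant members of the list, had log2 fold changes of 0.14 (standard error 0.27) and -0.23 (standard error 0.21).

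**Figure D5:**
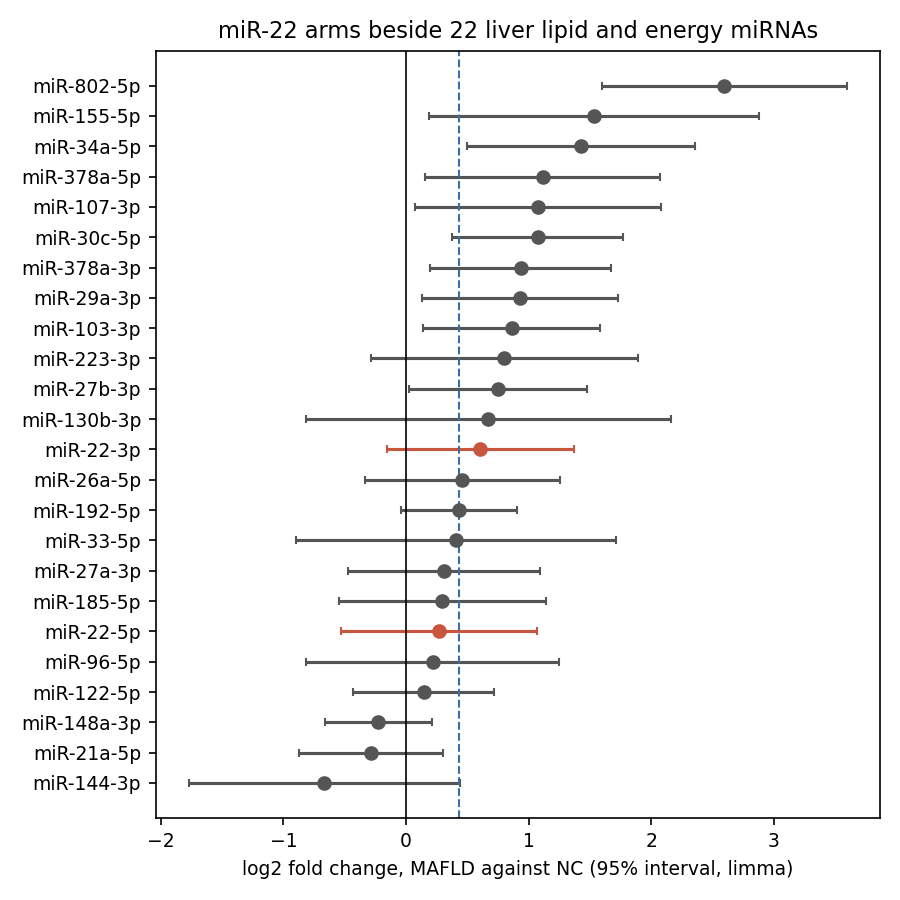
Log2 fold change of MAFLD against NC livers (x axis, points with 95% intervals from limma) for both miR-22 arms (red) and the 22 miRNAs of the liver lipid and energy list (grey). The solid line marks 0 and the dashed line the median of all 501 miRNAs, 0.43. The intervals of both miR-22 arms, at 0.61 and 0.27, include 0.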

How the data were processed

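Small RNA from 6 mouse livers was analysed, 3 NC and 3 MAFLD. The authors deposited CPM values, and per the labels their processing named FastQC, cutadapt, Bowtie, edgeR and GRCm38, without versions. How reads were assigned to miRNAs is not given in the sources used here. Each column summed to the same total. Reads were recovered by dividing by the smallest value of each library, and 100% of the values above 0 were whole to within 0.02. The libraries held 1336935 to 4685712 reads, and 3 reads were 0.640 to 2.24 CPM. Columns were matched to samples by library name.

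For 501 miRNAs averaging at least 1 CPM, log2(CPM + 1) was compared with limma 3.58.1 (R 4.3.3, eBayes using a mean trend), and the log2 ratio of the arms likewise over 105 pairs of equal name. The pseudocount draws folds of scarce miRNAs towards 0. Two-sided p-values were adjusted by Benjamini-Hochberg, with a threshold of 0.05. Single values had exact permutation tests (scipy 1.17.1). Alternatives used other pseudocounts, filters and scalings, each library left out, a replicate block, edgeR 4.0.16 and DESeq2 1.42.0. The hairpin was folded with RNAfold 2.7.2. The scripts were tested on simulated data. Named were both arms, their 3 neighbours in level on each side, the 3 most alike by r, seed sharers, and list members at an unadjusted p under 0.05 with miR-122-5p and miR-148a-3p. The members and lists were chosen with earlier results of these data known. The sources do not say whether livers were collected together, and the p-values measure the spread between these libraries. The study's cell culture and patient work was not analysed here.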

Additional observations from a re-analysis of the deposited data

How the results depend on the processing

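MiR-22-3p had a log2 fold change above 0 in all 18 alternatives, from 0.0056 with quantile normalization to 0.93 without NC replicate 3, and it passed the adjusted p in that 1 alternative (adjusted p from 0.0198 to 0.986). Leaving out 1 library gave from 0.43 to 0.93. MiR-22-5p was above 0 in 12 of 18 alternatives and passed in 0. It reversed to -0.19 with median-ratio scaling, -0.073 in CPM without miR-148a-3p, -0.076 with quantile normalization, -0.20 with edgeR, -0.25 with DESeq2, and -0.40 when NC replicate 3 was dropped under median-ratio scaling, an alternative chosen after seeing the data. These settings also lowered the median of all miRNAs. Its mean rank differed by 2.33 positions, with a range of -4.33 to 9.67 over fits that omitted 1 library. The arm ratio was above 0 in all 11 alternatives, from 0.14 to 0.64, with adjusted p from 0.137 to 0.878. The 1 miRNA past the adjusted p became 0 without the filter (105 at an unadjusted p under 0.05) and without the trend (74), 2 under median-ratio scaling, 2 without miR-148a-3p, 28 with DESeq2, 36 when NC replicate 3 was dropped under median-ratio scaling, and 0 to 114 over fits that omitted 1 library, the 114 without NC replicate 3. The 0 pairs of arms became 1 for arms averaging at least 10 CPM and 0 to 14 over fits that omitted 1 library, the 14 again without NC replicate 3. With the replicate block 5 miRNAs and 3 pairs passed, with log2 fold changes of 0.61 and 0.27 for the arms, and no call on miR-22 changed. Same-numbered libraries belong to mice on different diets, and their deviations correlated at 0.012, -0.020 and -0.046. The cause was not tested for any of these changes. MiR-22-5p had 112 to 441 reads per library, a counting variation of 4.76% to 9.45%, and its NC livers varied by 34.4% with median-ratio scaling.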
